A study of Danio rerio with 20 samples.

Results

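Whole-larva transcriptomes of zebrafish carrying the weak mutation of *rx3* were compared with those of wild-type larvae at 5 dpf (days post fertilization), without glucocorticoid treatment. The comparison comprised 8 of the 20 samples of the series, 4 of each genotype, chosen by genotype and treatment alone. The mutants were homozygous rx3 t25181/t25181 (*rx3 weak*). The remaining untreated mutants, homozygous rx3 t25327/t25327 (*rx3 strong*), were used to show where *rx3 weak* differs from another eyeless genotype. Their libraries were also part of the fit, so that its filter, scaling, time course and spread rest on all 12 untreated libraries. All these larvae are labelled untreated and of mixed TU, AB and WIK background, whereas the columns of the count table name DMSO, the vehicle, and the study's methods name AB wild types. The remaining 8 samples, of larvae given dexamethasone, were not used here. Each library was made from 30 pooled larvae, which were sorted by phenotype at 1 dpf and raised at 28 °C under 12 h light and 12 h dark. Samples were taken at ZT3, ZT9, ZT15 and ZT21 (zeitgeber time, in hours after lights on), with 1 library per genotype and time. The 4 times therefore stood in for replicates, and p-values measure only the spread between the 12 untreated libraries after a common time course is removed. In whole larvae, fewer cells of a type and less RNA per cell cannot be told apart. For these transcriptomes the study names the wild types as siblings of *rx3 strong*, and both mutants were compared with them. Differences between fish lines or clutches therefore cannot be told apart from those of the weak allele.

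The homeobox gene *rx3* is needed early in development for the eye field to form optic vesicles, and it is also active in the hypothalamus. The vertebrate retina holds rods and cones, which detect light with opsins and a cyclic GMP cascade, interneurons, ganglion cells and Müller glia, and it is backed by a pigment epithelium and faced by a lens built of crystallins. In fish, pituitary corticotropes release ACTH, cut from the product of *pomc*, and ACTH drives cortisol synthesis in the interrenal gland. The study used *rx3 weak* as an eyeless control without the cortisol deficiency of *rx3 strong*. Cortisol itself is not among the values analysed here.

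The libraries held between 16427280 and 22204708 counts, and the 10 most abundant genes took 8.28 to 8.79% of them in *rx3 weak* and 7.16 to 7.6% in wild type. Levels are given as normalized counts, that is, counts divided by each library's effective size (edgeR's TMM method) and multiplied by the mean size of the 12 untreated libraries. Because counts grow with transcript length, levels are compared between genotypes and not between genes. Symbols in capitals are as the gene name table writes them, and where several genes share a symbol the Ensembl identifier follows.

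*rx3* itself was still transcribed in *rx3 weak*, at a reduced level. Its normalized counts were 36.7, 47.8, 34.0 and 33.8 in *rx3 weak* at ZT3, ZT9, ZT15 and ZT21, against 84.5, 136, 130 and 87.0 in wild type. All 4 mutant libraries lay below all 4 wild-type libraries. The fitted log2 fold change was -1.51 ± 0.21 (SE, edgeR's quasi-likelihood test, adjusted p = 2.5e-05). In *rx3 strong* the mean was 51.9 normalized counts, and the difference between the mutants did not pass the threshold (log2 -0.43 for weak over strong, adjusted p = 0.28).

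Of 22078 genes with enough counts to test, 1395 were higher in *rx3 weak* (6.32%) and 1806 were lower (8.18%) at an adjusted p under 0.05. Of these 3201 genes, 3109 changed in the same direction at all 4 times. The call itself favours such agreement, because the times served as its replicates, so the count is no separate support. Counts of list members given below are to be set beside the shares of 6.32% higher and 8.18% lower. The falls were larger than the rises. At least 2-fold changes numbered 809 downward and 232 upward, and at least 8-fold changes 248 downward and 7 upward, while the median log2 fold change over all tested genes was 0.0057. The count of rises depended more on single libraries than that of falls: it was 818 without ZT3, 833 without ZT9, 859 without the wild-type library of ZT3 and 916 without that of ZT9.

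Of the gene lists examined, the visual opsins, the light receptors of rods and cones, had the lowest median. Of 10 opsin genes, 8 passed the filter on low counts, and all 8 were lower in *rx3 weak*, where 8.18% of all genes were. The median log2 fold change of the 8 was -4.35, beside 0.0057 over all genes. The summed opsin level was 5039, 3713, 4558 and 1637 normalized counts in *rx3 weak* at ZT3, ZT9, ZT15 and ZT21, against 75610, 85740, 69900 and 68070 in wild type. Thus 4.99% of the wild-type opsin RNA was present in *rx3 weak*, between 2.4% at ZT21 and 6.66% at ZT3.

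Every cone class contributed to this remainder. *OPN1SW*, a short-wavelength cone opsin, had 2529, 1522, 1973 and 659 normalized counts in *rx3 weak* at the same times, against 38820, 36390, 31220 and 33520 in wild type. The groups did not overlap. This was the opsin with the most counts in both genotypes, and its log2 fold change was -4.47 ± 0.29 (adjusted p = 6.5e-10). The blue cone opsin *opn1sw2* had the largest fall of the list, with 274, 85.0, 180 and 51.3 normalized counts in *rx3 weak* and 4156, 5616, 3997 and 4023 in wild type (log2 -4.96 ± 0.25, adjusted p = 1.5e-11).

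The red cone opsin *opn1lw2* had 606, 475, 657 and 105 normalized counts in *rx3 weak* and 10060, 14130, 12730 and 10260 in wild type (log2 -4.77 ± 0.27, adjusted p = 1.0e-10). The green cone opsin *opn1mw2* had 397, 350, 310 and 82.9 in *rx3 weak* and 5254, 7843, 4820 and 4599 in wild type (log2 -4.35 ± 0.19, adjusted p = 6.3e-13). In all 4 of these genes the lowest *rx3 weak* library was that of ZT21. *opn1mw1*, another green opsin, had nearly the same counts as *opn1mw2* in every library, and reads may have been split between these close copies, so that their separate levels are uncertain.

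**Figure D1:**
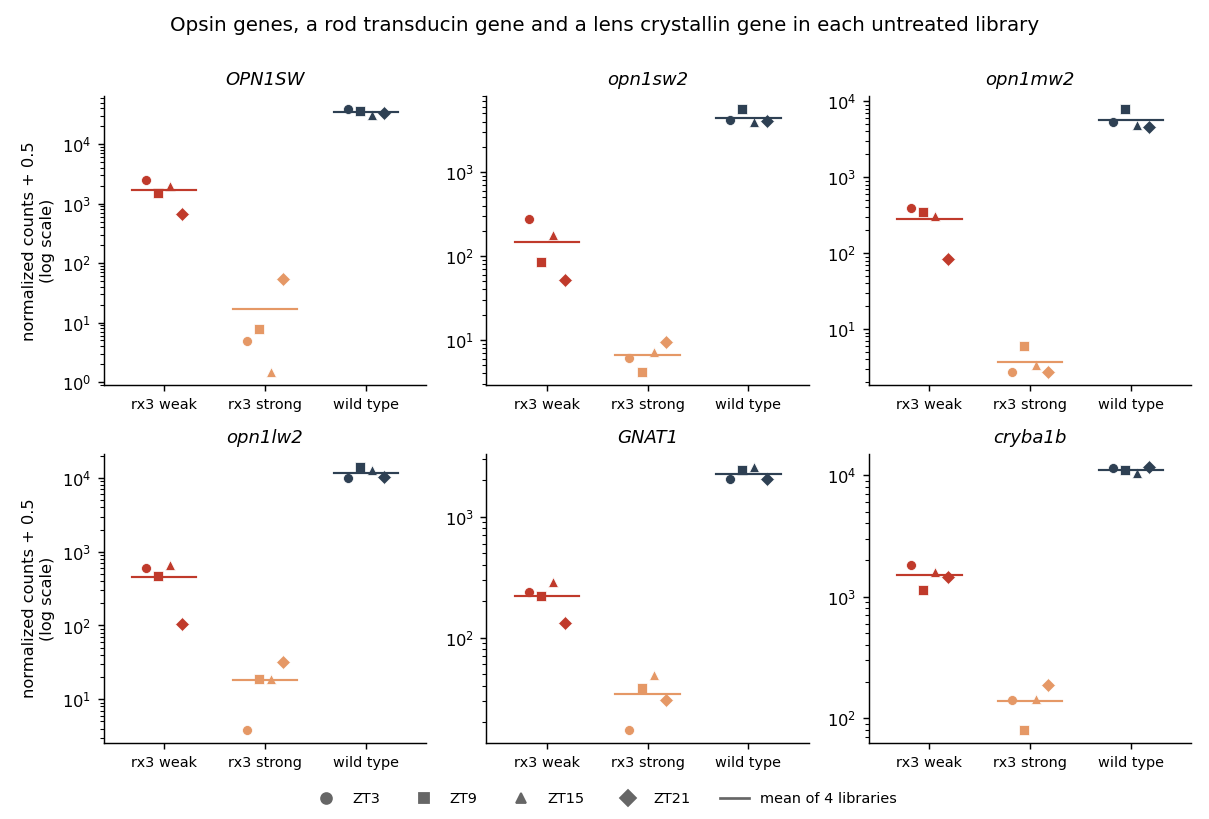
Normalized counts plus 0.5 (log scale) of 4 opsin genes, the rod transducin gene GNAT1 and the lens crystallin gene cryba1b in each untreated library of rx3 weak, rx3 strong and wild type. Marker shapes give the time and bars the mean of 4 libraries. The rx3 weak libraries lie between those of rx3 strong and wild type in every panel, for OPN1SW at 659 to 2529 normalized counts against 31220 to 38820 in wild type.

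The opsin RNA left in *rx3 weak* was far above that in *rx3 strong*. The summed opsin level in *rx3 strong* was between 31.2 and 128 normalized counts, which is 0.0866% of wild type. *OPN1SW* averaged 1671 ± 790.4 normalized counts in *rx3 weak* and 16.7 in *rx3 strong* (log2 6.65 for weak over strong, adjusted p = 4.0e-09), and 7 of the 8 opsins differed between the mutants, where 12.5% of all genes did. The exception was *opn1lw1*, which had 0 to 7.64 normalized counts in the *rx3 weak* libraries and 0.903 to 3.34 in those of *rx3 strong*. Thus the label of *rx3 weak* as eyeless did not mean an absence of rod, cone or lens transcripts from these libraries.

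The phototransduction cascade fell with the opsins. Of its 34 tested genes, 33 were lower and none was higher in *rx3 weak*, with a median log2 fold change of -3.27. The summed level was 7.37% of wild type. The cone transducin *GNAT2*, the G protein that couples cone opsins to the phosphodiesterase, had 1109, 546, 547 and 404 normalized counts in *rx3 weak* and 14920, 13400, 8208 and 15990 in wild type (log2 -4.36 ± 0.18, adjusted p = 1.1e-12). Its rod counterpart *GNAT1* had 240, 222, 288 and 131 in *rx3 weak* and 2061, 2416, 2587 and 2052 in wild type (log2 -3.38 ± 0.13, adjusted p = 3.2e-13). Both were named for their roles after their values had been seen, and for both all mutant libraries lay below all wild-type libraries.

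Genes whose products shut the cascade off were lower to different degrees. *RGS9* ENSDARG00000037925, which speeds up the turning off of transducin, averaged 42.5 ± 10.5 normalized counts in *rx3 weak* and 1071 ± 338 in wild type (SD, n = 4 each), the largest fall of the list (log2 -4.62). *GRK7* ENSDARG00000020602, a cone opsin kinase, averaged 136 ± 105 in *rx3 weak* and 3222 ± 1758 in wild type (log2 -4.59). Other genes with these symbols had smaller fold changes. *GRK7* ENSDARG00000055534 averaged 20.4 ± 5.5 in *rx3 weak* and 136 ± 66.2 in wild type (log2 -2.67), and *RGS9* ENSDARG00000045156 averaged 299 ± 37.8 in *rx3 weak* and 369 ± 32.8 in wild type (log2 -0.31 ± 0.10, adjusted p = 0.045, a call lost in 12 of 20 alternatives). The cone arrestin *ARR3* had 1290, 169, 173 and 131 normalized counts in *rx3 weak*, against 16840, 7644, 2620 and 4075 in wild type. Both genotypes had their highest value at ZT3, and the log2 fold change was -4.41 ± 0.22 (adjusted p = 1.5e-11). The one member that did not pass was the exchanger *SLC24A2* ENSDARG00000063158, with means of 164 normalized counts in *rx3 weak* and 160 in wild type. The gene written *slc24a2* in small letters is another member, and it was lower (log2 -3.26, quasi-likelihood test, adjusted p = 1.8e-11).

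All 24 tested genes for photoreceptor structure and fate were lower in *rx3 weak*, with fold changes between -4.58 and -0.49 on the log2 scale and a median of -3.70. *crx*, a homeobox gene that activates photoreceptor genes, had 69.9, 51.6, 131 and 34.9 normalized counts in *rx3 weak* and 1370, 1754, 1987 and 1726 in wild type (log2 -4.58 ± 0.17, adjusted p = 3.6e-13). *PRPH2* ENSDARG00000014840, which shapes the outer segment discs, had 123, 75.5, 114 and 41.5 in *rx3 weak* and 2014, 2320, 1910 and 1933 in wild type (log2 -4.52 ± 0.17, adjusted p = 6.3e-14). No mutant library reached a wild-type library in either gene. The smallest falls were those of *NEUROD1*, a proneural factor also used elsewhere in the nervous system (1331 ± 83.0 in *rx3 weak* and 2673 ± 1026 in wild type), and of *PROM1* ENSDARG00000039966 (881 ± 84.6 in *rx3 weak* and 1238 ± 118 in wild type). These abundant genes held much of the list's remaining RNA, and the summed level was 16.0% of wild type.

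The inner retina list showed a graded fall. Of its 23 tested genes, 20 were lower and 1 was higher, with a median log2 fold change of -1.71. The deepest falls were those of *rx2*, a paralog of *rx3* active in the retina, and of *VSX1*, a factor of bipolar cells. *rx2* had 4.37, 2.87, 10.7 and 4.36 normalized counts in *rx3 weak* and 149, 160, 215 and 94.1 in wild type (log2 -4.77 ± 0.23, adjusted p = 2.5e-13). *VSX1* had 66.4, 22.9, 69.8 and 17.5 in *rx3 weak* and 1050, 996, 1226 and 886 in wild type (log2 -4.55 ± 0.18, adjusted p = 4.9e-13). The third paralog, *rx1*, followed with 40.2, 19.1, 65.3 and 12.0 normalized counts in *rx3 weak* against 720, 658, 682 and 236 in wild type (log2 -4.07 ± 0.21, adjusted p = 1.3e-11).

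The gene *rlbp1a*, which encodes a retinaldehyde-binding protein, had 46.3, 44.9, 52.8 and 25.1 normalized counts in *rx3 weak* and 554, 572, 702 and 603 in wild type (log2 -3.83 ± 0.15, adjusted p = 4.7e-13). *atoh7*, which specifies retinal ganglion cells, averaged 6.77 ± 2.47 in *rx3 weak* and 90.1 ± 6.12 in wild type (log2 -3.69). Factors that ganglion cells share with other neurons fell less. *POU4F2* averaged 562 ± 29.8 in *rx3 weak* and 760 ± 36.6 in wild type (log2 -0.43 ± 0.09, adjusted p = 0.0015). The only member that rose was *SNCG*, a synuclein of peripheral and ganglion cell neurons, with 3072, 2556, 2938 and 2217 normalized counts in *rx3 weak* and 1680, 1639, 1864 and 1868 in wild type (log2 0.60 ± 0.10, adjusted p = 0.00019).

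Beyond the opsins and *rx2*, the 12 largest falls among genes with a symbol included *foxg1b* and *SLC1A2*. *foxg1b*, a forkhead gene of the telencephalon and nasal retina, had 19.2, 22.9, 19.7 and 10.9 normalized counts in *rx3 weak* and 524, 492, 459 and 536 in wild type (log2 -4.76 ± 0.16, adjusted p = 6.3e-14). *SLC1A2*, a transporter that removes glutamate from synapses, had 11.4, 4.78, 0 and 32.7 in *rx3 weak*, against 273, 119, 18.3 and 973 in wild type. Its wild-type level changed so strongly over the day that the groups overlapped, although the mutant was lower at each time (log2 -4.78 ± 0.22, adjusted p = 4.6e-13).

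Genes of the pigment epithelium and visual cycle were lower in *rx3 weak* for 13 of 20 tested and higher for none. *RPE65* ENSDARG00000007480, the isomerase that regenerates the opsin chromophore in the pigment epithelium, had 93.5, 32.5, 42.0 and 63.3 normalized counts in *rx3 weak* and 1005, 892, 765 and 1295 in wild type (log2 -4.10 ± 0.18, adjusted p = 1.7e-12). The other genes with this symbol did not pass. *RPE65* ENSDARG00000054420 averaged 159 ± 26.1 in *rx3 weak* and 141 ± 39.4 in wild type, and *RPE65* ENSDARG00000094752 averaged 306 ± 43.2 in *rx3 weak* and 248 ± 45.1 in wild type. *RGR*, an opsin-like isomerase, averaged 62.8 ± 14.2 in *rx3 weak* and 197 ± 45.2 in wild type (log2 -1.64 ± 0.15, adjusted p = 7.4e-08).

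The lens list fell almost as a whole. Of 64 lens genes, 53 were tested and 52 were lower in *rx3 weak*, with a median log2 fold change of -2.99. The one that did not pass was *crygm3*, with means of 12.1 normalized counts in *rx3 weak* and 22.7 in wild type. The beta crystallin *cryba1b* had 1804, 1126, 1588 and 1450 normalized counts in *rx3 weak* and 11420, 10940, 10350 and 11670 in wild type (log2 -2.91 ± 0.12, adjusted p = 8.4e-13). *BFSP1*, a filament protein found in lens fibres, had 704, 477, 684 and 573 in *rx3 weak* and 3241, 3290, 3088 and 3893 in wild type (log2 -2.48 ± 0.11, adjusted p = 1.6e-12). Neither gene had overlapping groups.

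Many of the list's gamma crystallins are near-identical copies, and their counts may be split among them. One of them, *crygm2d3*, had 1117, 916, 1361 and 988 normalized counts in *rx3 weak* and 6496, 5710, 6110 and 6235 in wild type (log2 -2.49 ± 0.09, adjusted p = 2.6e-13). The summed lens level in *rx3 weak* ranged from 16630 to 26030 normalized counts, against 156100 to 187900 in wild type, or 12.9% of wild type. In *rx3 strong* it was 1400 to 2926 normalized counts, or 1.29% of wild type, and 46 of the 53 genes differed between the mutants. *cryba1b* averaged 1492 ± 284 in *rx3 weak* and 138 in *rx3 strong* (log2 3.45 for weak over strong, adjusted p = 4.6e-12).

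The other eye lists stood closer together in the mutants than lens and opsins did. The summed phototransduction level was 7.37% of wild type in *rx3 weak* and 2.45% in *rx3 strong*, and 19 of 34 genes differed between the mutants. For photoreceptor structure and fate, these shares were 16.0% in *rx3 weak* and 12.7% in *rx3 strong*, and 15 of 24 genes differed. This list's median log2 fold changes stood further apart, at -3.70 in *rx3 weak* and -5.37 in *rx3 strong*. For phototransduction the medians were -3.27 in *rx3 weak* and -4.90 in *rx3 strong*. For the inner retina the summed shares were 57.7% in *rx3 weak* and 50.6% in *rx3 strong*, and 7 of 23 genes differed, among them *rx2*, *VSX1* and *rx1*. Abundant members that were not lower, *SNCG* and *cahz* (826 ± 188 in *rx3 weak* and 861 ± 196 in wild type), made up much of this sum, and the list's median log2 fold change was -1.71 in *rx3 weak* and -1.86 in *rx3 strong*. Both mutants were compared with the same wild-type libraries. Across the genome, 233 genes were stepped, that is, lower in *rx3 weak* than in wild type, higher than in *rx3 strong*, and also lower in *rx3 strong* than in wild type. In *rx3 strong* 19.5% of the tested genes differed from wild type in either direction.

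**Figure D2:**
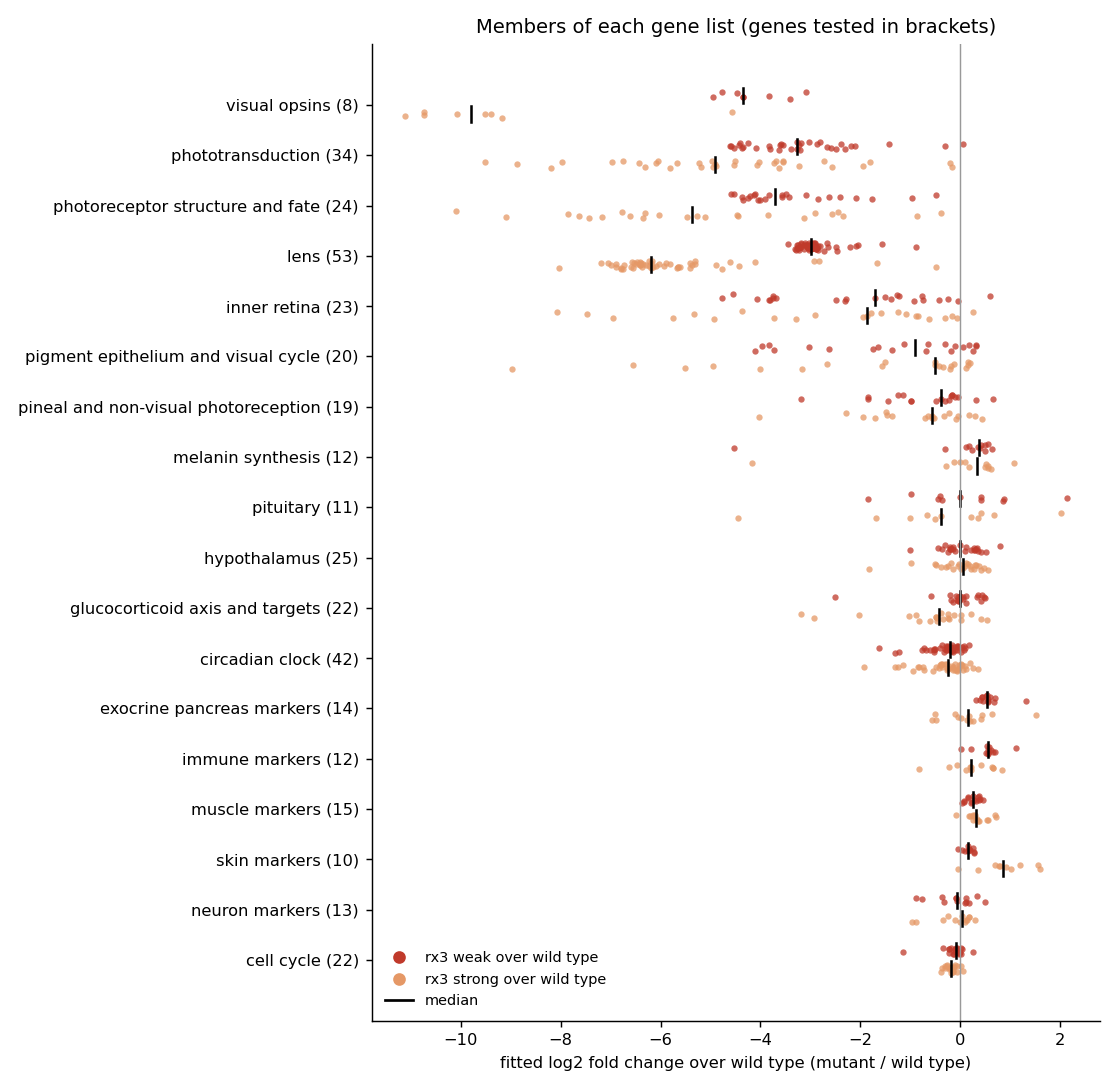
Fitted log2 fold changes over wild type of the tested members of 18 gene lists, in rx3 weak (upper rows) and rx3 strong (lower rows), with black bars for medians. Members with no reads in rx3 strong (such as crygmxl1) have fold changes that depend on the fit's prior count. The rx3 weak medians run between -4.35 for the visual opsins and 0.56 for the immune markers.

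Non-visual light sensing changed in part. Of 19 tested genes of the pineal gland and non-visual photoreception, 8 were lower in *rx3 weak*, where 8.18% of all genes were, and none was higher. None differed between the mutants, where 12.5% of all genes did. *opn6b*, a non-visual opsin, had 13.1, 18.1, 25.9 and 8.73 normalized counts in *rx3 weak* and 68.0, 316, 220 and 33.4 in wild type (log2 -3.19 ± 0.30, adjusted p = 1.3e-07). *OPN4* ENSDARG00000007553, a melanopsin, had 101, 77.4, 106 and 80.7 in *rx3 weak*, against 362, 375, 334 and 255 in wild type (log2 -1.85 ± 0.14, adjusted p = 8.1e-09). For both genes every mutant library was below every wild-type library. The genes of the last but one step of melatonin synthesis were lower. *aanat2* had 15.7, 12.4, 46.5 and 40.4 normalized counts in *rx3 weak* and 21.6, 69.7, 116 and 66.8 in wild type (log2 -1.24 ± 0.29, adjusted p = 0.0051), a call lost without the wild-type library of ZT15, all libraries of ZT9 or the time term. *aanat1* averaged 12.3 ± 5.12 in *rx3 weak* and 34.4 ± 21.2 in wild type (log2 -1.44 ± 0.35, adjusted p = 0.0086), a call lost without the library of ZT15 or ZT21 of either genotype, all of ZT15 or ZT21, or the time term. *tph1b*, of serotonin synthesis, did not pass, with means of 100 normalized counts in *rx3 weak* and 107 in wild type. The count of lower genes was 5 without the wild-type library of ZT15 or without the time term.

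Of 12 genes of melanin synthesis, 5 were higher in *rx3 weak*, where 6.32% of all genes were, 1 was lower and 6 did not pass. *tyrp1b*, a melanosomal enzyme, had 2164, 2573, 1876 and 1790 normalized counts in *rx3 weak* and 1718, 1489, 1208 and 1294 in wild type (log2 0.55 ± 0.10, adjusted p = 0.00037). *pmela*, a fibril protein of melanosomes, averaged 2144 ± 251 in *rx3 weak* and 1536 ± 277 in wild type (log2 0.49 ± 0.10, adjusted p = 0.0014). Its paralog *pmelb* went the other way, with 5.24, 1.91, 10.7 and 2.18 in *rx3 weak* and 61.8, 130, 206 and 87.0 in wild type (log2 -4.53 ± 0.31, adjusted p = 1.2e-09). No member differed between the mutants, where 12.5% of all genes did. The number of rises was 3 without any one of the wild-type libraries of ZT15 and ZT21, the *rx3 weak* library of ZT9, or all libraries of ZT15 or of ZT21, and 2 without the time term.

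Among genes that govern background adaptation, the melanin-concentrating hormone gene *pmchl*, whose peptide pales the skin of fish, was lower. It had 21, 22.9, 15.2 and 25.1 normalized counts in *rx3 weak* and 28.8, 51.4, 55.9 and 56.7 in wild type, without overlap. The log2 fold change was -1.19 ± 0.27 (adjusted p = 0.0046), and the call was lost when ZT15 was left out (adjusted p = 0.050). *pmchl* was lower still in *rx3 strong*, with a mean of 7.83 normalized counts against 21.1 in *rx3 weak* (adjusted p = 0.026 for weak over strong).

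Most genes of the glucocorticoid axis did not pass the test in *rx3 weak*. Of 22 tested genes of the glucocorticoid axis and its targets, 3 were higher and 2 were lower, and the median log2 fold change was -0.01. Over all tested genes 6.32% were higher and 8.18% were lower, so that most genes not passing is not particular to this list. *FKBP5*, a chaperone of the glucocorticoid receptor and a widely used target of it, had 1331, 2127, 1908 and 2904 normalized counts in *rx3 weak* and 1679, 1486, 1598 and 3935 in wild type. The groups overlapped, ZT21 was the highest time in both, and the log2 difference was -0.03 ± 0.22 (adjusted p = 0.95). In *rx3 strong* the 4 libraries had 156 to 371 normalized counts, below every *rx3 weak* library (log2 2.89 for weak over strong, adjusted p = 1.8e-07).

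*KLF9*, a transcription factor gene induced by the receptor, had 441, 574, 586 and 884 normalized counts in *rx3 weak* and 412, 323, 404 and 868 in wild type. It passed the threshold narrowly (log2 0.35 ± 0.11, adjusted p = 0.047). The call was lost without the wild-type library of ZT3 (0.051), ZT9 (0.26) or ZT15 (0.20), without the *rx3 weak* library of ZT9 (0.20) or ZT15 (0.12), and without all libraries of ZT9 (0.31) or ZT15 (0.17), all adjusted p. It was also lost with DESeq2 (0.051), without the filter on low counts (0.051), with the older quasi-likelihood method (0.050) and without the time term (0.66). *KLF9* averaged 118 normalized counts in *rx3 strong* (log2 2.39 for weak over strong, adjusted p = 3.8e-10). *tsc22d3*, another receptor target, averaged 1965 ± 454 in *rx3 weak* and 2013 ± 578 in wild type (log2 -0.02 ± 0.08, adjusted p = 0.91), and *pck1*, of gluconeogenesis, averaged 3472 ± 1556 in *rx3 weak* and 3508 ± 1185 in wild type (log2 -0.04 ± 0.20, adjusted p = 0.92). The receptor gene itself, *NR3C1*, averaged 1642 ± 214 in *rx3 weak* and 1522 ± 97.6 in wild type (adjusted p = 0.43). Beside *KLF9*, the higher members were *tat*, a tyrosine aminotransferase gene (1250 ± 499.7 in *rx3 weak* and 898 ± 278 in wild type, log2 0.47 ± 0.12, adjusted p = 0.016), and *nfkbiaa*, an inhibitor gene of NF-kappa-B (686 ± 94.8 in *rx3 weak* and 504 ± 84.5 in wild type, log2 0.44 ± 0.12, adjusted p = 0.018). The number of higher members was 0 without the wild-type library of ZT3 or without the time term, and 1 without the wild-type library of ZT9 or ZT15, the *rx3 weak* library of ZT9, or all libraries of ZT3 or ZT9.

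The largest fall in the axis was that of *cyp11c1*, the 11-beta-hydroxylase of the last step of cortisol synthesis. It had 11.4, 22.0, 47.4 and 30.6 normalized counts in *rx3 weak* and 56.6, 61.7, 220 and 338 in wild type. Every *rx3 weak* library was below every wild-type library, and the log2 fold change was -2.51 ± 0.30 (adjusted p = 4.9e-06). *rx3 strong* averaged 17.0 normalized counts, and the difference between the mutants did not pass (log2 0.69 for weak over strong, adjusted p = 0.39). The other lower member, *CRHBP*, which encodes a binding protein of corticotropin-releasing hormone, had 202, 173, 169 and 175 normalized counts in *rx3 weak* and 239, 292, 266 and 292 in wild type, without overlap (log2 -0.59 ± 0.12, adjusted p = 0.0013). Genes of earlier steps of cortisol synthesis did not pass. *star*, which carries cholesterol into mitochondria, averaged 200 ± 12.4 in *rx3 weak* and 159 ± 14.9 in wild type (log2 0.33 ± 0.12, adjusted p = 0.085). *cyp17a2* averaged 33.2 ± 2.35 in *rx3 weak* and 24.9 ± 6.64 in wild type (adjusted p = 0.30). Both were higher in *rx3 weak* than in *rx3 strong*, whose means were 114 for *star* (adjusted p = 0.00020) and 12.1 for *cyp17a2* (adjusted p = 0.0017).

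**Figure D3:**
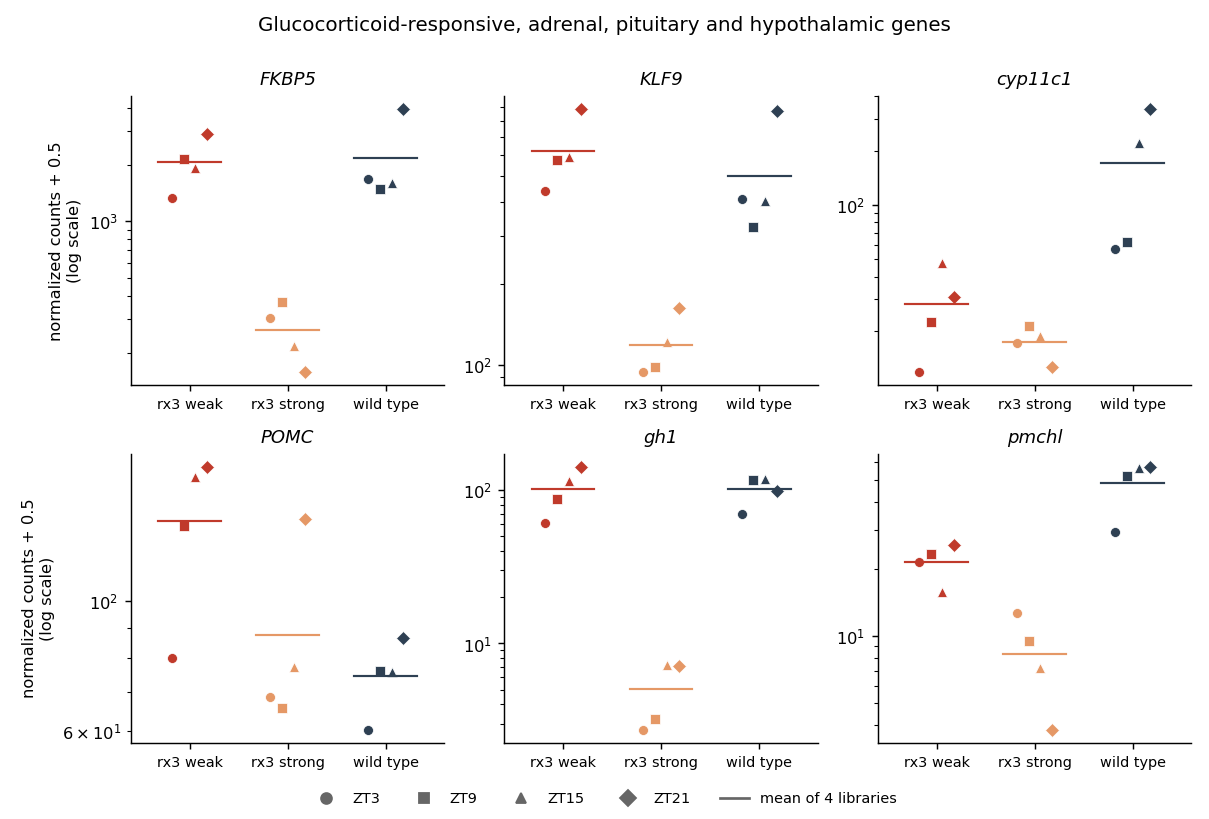
Normalized counts plus 0.5 (log scale) of FKBP5, KLF9, cyp11c1, POMC, gh1 and pmchl in each untreated library of rx3 weak, rx3 strong and wild type, with bars for means of 4 libraries. FKBP5, KLF9 and gh1 overlap between rx3 weak and wild type and are low in rx3 strong, whereas cyp11c1 is low in both mutants (means of 27.8 in rx3 weak, 17.0 in rx3 strong and 169 in wild type).

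The pituitary list held 3 higher and 4 lower genes of 11 tested, where 6.32% of all genes were higher and 8.18% lower. It held 1 higher gene without the wild-type library of ZT3, all libraries of ZT3, or the time term. *POMC*, the precursor of ACTH and melanocyte-stimulating hormone, had 79.5, 134, 163 and 169 normalized counts in *rx3 weak*, against 59.7, 75.4, 75.2 and 86.0 in wild type. It was higher at each time, and the ZT3 value of *rx3 weak* lay within the wild-type range (log2 0.87 ± 0.17, adjusted p = 0.0016). The level in *rx3 weak* also exceeded that in *rx3 strong*, whose mean was 86.9 (log2 0.67 for weak over strong, adjusted p = 0.012). Without the time term in the model, the call was lost (adjusted p = 0.068). *gh1*, the growth hormone gene, had 60.3, 87.9, 115 and 142 normalized counts in *rx3 weak* and 70.0, 116, 118 and 99.2 in wild type (log2 -0.01 ± 0.16, adjusted p = 0.98), while *rx3 strong* had 2.23 to 6.71.

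*LHX4*, a LIM homeobox gene of pituitary and retinal development, had 122, 157, 159 and 136 normalized counts in *rx3 weak* and 323, 241, 320 and 250 in wild type (log2 -0.99 ± 0.13, adjusted p = 2.5e-05). Of 25 tested hypothalamic genes, *isl1*, a LIM homeobox gene that retinal neurons also use, was the one that passed, and a further gene did without the *rx3 weak* library of ZT15 or all of ZT15. It had 364, 359, 340 and 387 normalized counts in *rx3 weak* and 699, 741, 781 and 682 in wild type (log2 -1.0 ± 0.10, adjusted p = 2.7e-07). For both genes the groups did not overlap. Neither passed the test between the mutants. The means for *isl1* were 363 in *rx3 weak* and 365 in *rx3 strong*. Those for *LHX4* were 143 in *rx3 weak* and 178 in *rx3 strong* (log2 -0.32 for weak over strong, quasi-likelihood test, adjusted p = 0.165). Hypothalamic peptide genes that did not pass included *CRH*, which drives ACTH release (means of 55.3 in *rx3 weak* and 62.4 in wild type), and *oxt* (means of 34.4 in *rx3 weak* and 28.8 in wild type).

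Part of the circadian clock list was lower. Of 42 tested genes, 12 were lower in *rx3 weak*, where 8.18% of all genes were, none was higher, and the median log2 fold change was -0.21. Core genes of the loop were found among those that passed and those that did not. *PER2*, a light-induced repressor gene, had 3010, 894, 91.2 and 106 normalized counts in *rx3 weak* and 4182, 1348, 123 and 162 in wild type, lower at each time (log2 -0.52 ± 0.12, adjusted p = 0.0059). Its call was lost without the wild-type library of ZT9, without all libraries of ZT3 and without the time term. The loop genes *npas2*, *cry3a*, *cry3b* and *bhlhe40* were also lower, with log2 fold changes between -0.53 and -0.27 and calls that each were lost in 9 to 12 of 20 alternatives. *PER1* ENSDARG00000012499, a repressor of the loop, had 3120, 266, 50.1 and 3726 normalized counts in *rx3 weak* and 3677, 232, 57.9 and 4312 in wild type and did not pass (adjusted p = 0.37). *CLOCK*, an activator, had 680, 1596, 3259 and 750 in *rx3 weak* and 806, 1855, 2767 and 720 in wild type and did not pass either (adjusted p = 0.89).

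The genes of the list with the largest falls were nuclear receptors and output factors. *RORB*, a receptor gene with a known role in the retina, had 71.7, 81.2, 61.7 and 74.2 normalized counts in *rx3 weak* and 247, 232, 194 and 218 in wild type (log2 -1.63 ± 0.14, adjusted p = 6.7e-08). *nfil3-6*, a repressor of the bZIP class, had 338, 230, 35.8 and 79.7 in *rx3 weak* and 773, 548, 73.1 and 274 in wild type (log2 -1.31 ± 0.18, adjusted p = 3.4e-05). *rorab* had 1598, 1058, 349 and 547 in *rx3 weak* and 2067, 2129, 640 and 1028 in wild type (log2 -0.78 ± 0.10, adjusted p = 1.9e-05). *RORB* was flat over the day and its groups were separate, whereas the other genes cycled in both genotypes, so that the groups overlapped although the mutant was lower at each time. Between the mutants 3 of the 42 genes differed, where 12.5% of all genes did. The number of lower genes was 7 without the wild-type library of ZT9 or without ZT3, and 2 without the time term, which then leaves the daily cycle in the error (adjusted p = 0.36 for *nfil3-6* and 0.48 for *rorab*).

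No gene passed the test of a different 24 h rhythm between *rx3 weak* and wild type (edgeR's quasi-likelihood test on cosine and sine terms, smallest adjusted p = 0.163). At an unadjusted p under 0.05 there were 220 genes, and 558 without the wild-type library of ZT3, 531 without that of ZT9, 359 without ZT15 and 342 without ZT21. DESeq2's likelihood ratio test called 1 gene, with 69 at an unadjusted p under 0.05. The fit left 3 residual degrees of freedom, so that differences in rhythm of ordinary size may not have been detectable with these libraries. Without 1 of the wild-type libraries, between 1 and 5 genes passed (4 without ZT3, 5 without ZT9, and 1 each without ZT15 and ZT21). Named by the smallest p of this test were, among others, *gck*, *SIK1* and *MYO3A*. *SIK1*, a salt-inducible kinase gene, had 826, 776, 643 and 626 normalized counts in *rx3 weak* and 756, 644, 1577 and 1213 in wild type. Its wild-type libraries were high at ZT15 and ZT21, where those of *rx3 weak* were at their lowest. *MYO3A*, a class III myosin of sensory cells, had 176, 212, 198 and 191 in *rx3 weak* and 701, 443, 330 and 629 in wild type, and its level was lower in *rx3 weak* at every time (log2 -1.40 ± 0.16, adjusted p = 1.9e-06).

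**Figure D4:**
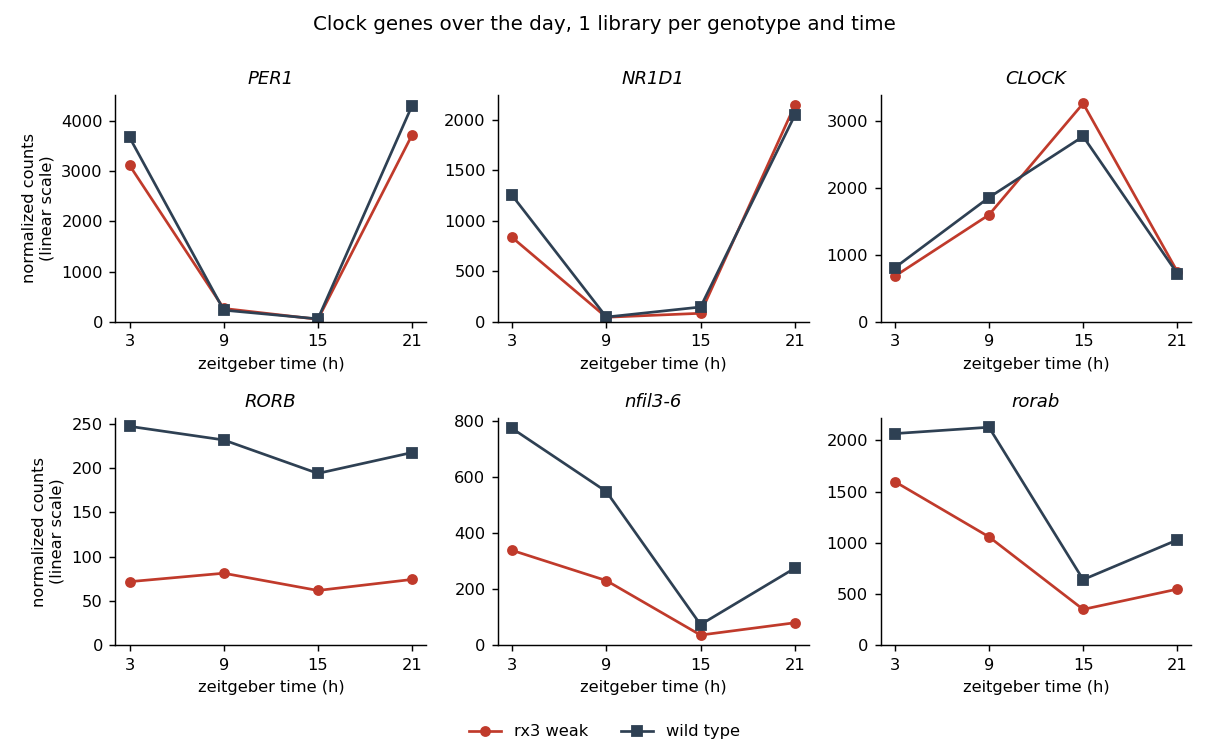
Normalized counts (linear scale from 0) over zeitgeber time (h) of 6 clock genes in rx3 weak (circles) and wild type (squares), 1 library per point. PER1 ENSDARG00000012499, NR1D1 and CLOCK, which did not pass the test, have their highest value at the same time in both genotypes, while RORB, nfil3-6 and rorab are lower in rx3 weak at each time (RORB 61.7 to 81.2 in rx3 weak against 194 to 247 in wild type).

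Of the 3201 genes changed in *rx3 weak*, 1083 also differed between the mutants, where 12.5% of all genes did. The other 2118 did not pass that test, which does not show equal levels in the mutants. Both tests use the same *rx3 weak* libraries, so a deviation in these libraries favours a call in both. The 1083 and the counts drawn from them are therefore no separate support. Among the 1083, 517 genes were higher in *rx3 weak* than in both wild type and *rx3 strong*, 103 of them at least 2-fold in both comparisons. A further 290 were lower than in both, 112 of them at least 2-fold. Among genes with a symbol, at least 50 mean counts in wild type and lower at all times, the deepest falls were of this kind. They were found in *rx3 weak* and not in *rx3 strong*. *plod3*, a lysyl hydroxylase of collagen, had 0.874, 1.91, 0.894 and 1.09 normalized counts in *rx3 weak*, 5 reads in all, against 80.3, 131, 90.4 and 76.9 in wild type (log2 -6.17 ± 0.34, adjusted p = 2.3e-12). In *rx3 strong* it had 90.1 to 114 (adjusted p = 0.53 against wild type).

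*GRK4*, a G protein-coupled receptor kinase gene, had 1.75, 3.82, 0 and 1.09 normalized counts in *rx3 weak*, 7 reads in all, against 73.1, 74.2, 70.1 and 108 in wild type and 66.0 to 111 in *rx3 strong*. *tspan5b*, a tetraspanin gene, had 1 read in the 4 *rx3 weak* libraries and 312 in wild type, so that its level was 0.290% of wild type (exact 95% interval 0.00731 to 1.63%, counting error only). In *rx3 strong* it had 65.0 to 85.8 normalized counts. Both differed from wild type and from *rx3 strong* (adjusted p = 4.1e-09 and 9.3e-09 for *GRK4*, and 3.2e-09 and 1.9e-08 for *tspan5b*). *grk4* and *tspan5b* overlap in the RefSeq annotation of the GRCz12tu assembly. The reads were mapped to Zv9, where their overlap was not checked. Whether counting used the strand is not given in the sources used here. Thus it is not known how far reads of this pair can be told apart. Their fitted fold changes depend on the few reads left and moved by over 1.5 times without the *rx3 weak* library of ZT15 for *tspan5b* (log2 -9.28) and of ZT9 for *GRK4* (log2 -6.31).

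The rises that set *rx3 weak* apart were led, among named genes, by *si:dkey-169i5.4*. Its means were 50.5 in *rx3 weak*, 2.14 in *rx3 strong* and 2.32 in wild type. The log2 fold change was 4.36 ± 0.40 over wild type (quasi-likelihood test, adjusted p = 1.6e-08) and 4.57 over *rx3 strong* (adjusted p = 2.8e-08). The next was *gck*, the glucokinase that phosphorylates glucose in liver and pancreas. It had 822, 1444, 1408 and 604 normalized counts in *rx3 weak*, 33.4, 164, 153 and 25.4 in *rx3 strong*, and 13.4, 87.9, 318 and 82.0 in wild type. Every *rx3 weak* library was above every other library, with a log2 fold change over wild type of 3.26 ± 0.31 (adjusted p = 1.6e-07) and over *rx3 strong* of 3.63 (adjusted p = 1.3e-07). The wild-type library of ZT15 was the highest of its group, and the log2 fold change was 3.93 without it and 3.98 without all libraries of ZT15. *cfap70*, a gene of motile cilia, had 152, 133, 197 and 199 in *rx3 weak* and 35.0, 16.0, 23.4 and 25.3 in wild type (log2 2.75 ± 0.21, adjusted p = 7.5e-09), and 21.1 to 31.6 in *rx3 strong*. *myha*, a myosin heavy chain gene, had 1444, 1394, 1702 and 2038 in *rx3 weak* and 384, 306, 352 and 342 in wild type (log2 2.25 ± 0.15, adjusted p = 1.4e-09), and it was also above *rx3 strong* (log2 1.58, adjusted p = 2.9e-07). Its rise was partly shared, because *rx3 strong*, with a mean of 562, was itself higher than wild type (log2 0.67, quasi-likelihood test, adjusted p = 0.0049).

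**Figure D5:**
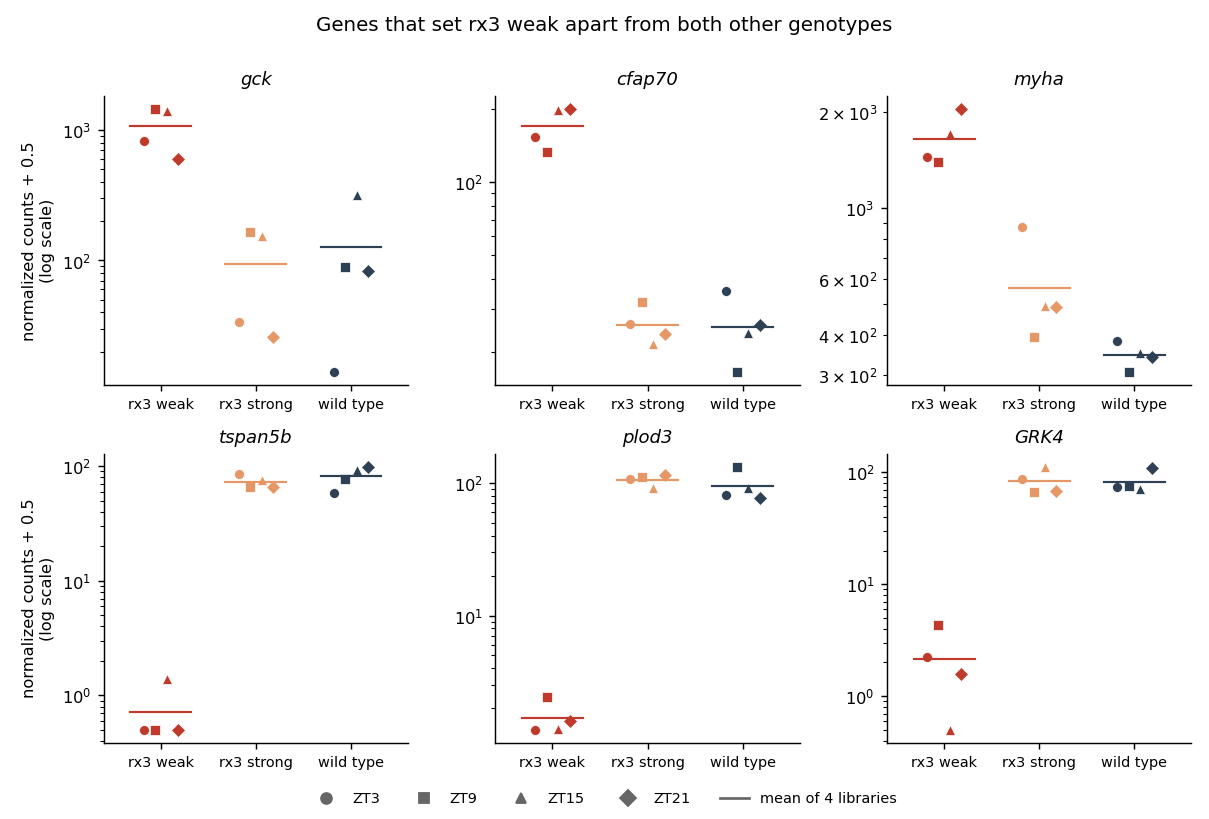
Normalized counts plus 0.5 (log scale) of gck, cfap70, myha, tspan5b, plod3 and GRK4 in each untreated library of rx3 weak, rx3 strong and wild type, with bars for means of 4 libraries. For gck, cfap70 and myha all rx3 weak libraries lie above all others, and for tspan5b, plod3 and GRK4 they lie under all others (at most 3.82 normalized counts for GRK4 in rx3 weak, against 70.1 to 108 in wild type).

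*abcg2b*, an efflux transporter gene, rose in both mutants. It had 1519, 940, 792 and 1549 normalized counts in *rx3 weak* and 298, 124, 98.5 and 392 in wild type, without overlap (log2 2.46 ± 0.14, adjusted p = 7.0e-11). *rx3 strong* averaged 888, slightly below the 1200 of *rx3 weak* (log2 0.42 for weak over strong, adjusted p = 0.025).

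Of the organ lists, that of the exocrine pancreas moved the most uniformly. Of 14 genes of digestive enzymes, 13 were higher in *rx3 weak*, with a median log2 fold change of 0.54, beside 0.0057 over all genes. *cel.2*, a bile salt-stimulated lipase, had 2767, 2821, 3415 and 3700 normalized counts in *rx3 weak* and 980, 1201, 1269 and 1656 in wild type (log2 1.32 ± 0.09, adjusted p = 1.8e-09). It was the only member of the 14 whose groups did not overlap, where 5.83% of all genes were separate and higher. *cel.2* was also high in *rx3 strong*, with a mean of 3587 against 3176 in *rx3 weak*. That difference did not pass (log2 -0.18 for weak over strong, quasi-likelihood test, adjusted p = 0.20). *ctrl*, a chymotrypsin-like protease, had 3561, 3400, 4276 and 5023 in *rx3 weak* and 1860, 2419, 2334 and 3692 in wild type (log2 0.69 ± 0.08, adjusted p = 6.2e-06, but 0.072 without the time term). The summed level was 140% of wild type in *rx3 weak* and 107% in *rx3 strong*, and 9 of the 14 genes differed between the mutants. Without the time term, which leaves the daily course of these enzymes in the error, 1 of the 14 passed.

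Of 12 tested immune markers, 7 were higher in *rx3 weak*, where 6.32% of all genes were, and 5 did not pass, with a median log2 fold change of 0.56. *cd74a*, the invariant chain of antigen presentation, had 55.9, 55.4, 59.0 and 74.2 normalized counts in *rx3 weak* and 36.0, 26.3, 25.4 and 24.3 in wild type (log2 1.12 ± 0.25, adjusted p = 0.0044). *ptprc*, the leukocyte common antigen, had 296, 337, 396 and 445 in *rx3 weak* and 190, 244, 222 and 286 in wild type (log2 0.65 ± 0.11, adjusted p = 0.00032). Both genes had separate groups. The count was 4 without the wild-type library of ZT15, without all libraries of ZT3 or ZT15, or without the time term.

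Neuronal and glial markers changed for some members only. Of 13 neuronal genes, 4 were lower and 2 were higher, where 8.18% of all genes were lower and 6.32% higher. The number of higher genes was 1 without the wild-type library of ZT3, ZT9 or ZT21, the *rx3 weak* library of ZT9 or all libraries of ZT9, and 0 without the *rx3 weak* library of ZT15 or the time term. *sypb*, a synaptic vesicle protein gene, had 1921, 1736, 1893 and 1787 normalized counts in *rx3 weak* and 3297, 2907, 2770 and 3490 in wild type (log2 -0.76 ± 0.08, adjusted p = 3.6e-07). *SNAP25* ENSDARG00000058117, of the vesicle fusion machinery, averaged 2044 ± 330 in *rx3 weak* and 3781 ± 221 in wild type (log2 -0.90 ± 0.08, adjusted p = 7.5e-08), whereas its copy *SNAP25* ENSDARG00000020609 averaged 12550 ± 1050 in *rx3 weak* and 11120 ± 1107 in wild type (adjusted p = 0.19). No neuronal marker differed between the mutants, where 12.5% of all genes did. Among glial markers, *GFAP* averaged 7960 normalized counts in *rx3 weak* and 7909 in wild type, and the myelin gene *mbpa* averaged 3190 ± 389 in *rx3 weak* and 2349 ± 494 in wild type (log2 0.46 ± 0.09, adjusted p = 0.0018, but 0.16 without the time term).

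Other organ lists moved little. Of 15 muscle genes, 6 were higher in *rx3 weak*, where 6.32% of all genes were, with log2 fold changes of at most 0.46. The count was 3 without the wild-type library of ZT15 or ZT21, the *rx3 weak* library of ZT3 or ZT15, all libraries of ZT3 or ZT15, or the time term. Of 8 intestinal and 10 skin genes none passed in *rx3 weak*. In *rx3 strong*, 9 of the skin genes were higher than in wild type, where 1944 of all 22078 tested genes were. Between the mutants 8 of the skin genes differed, where 12.5% of all genes did. Of 22 genes of cell division only *MCM3* passed, a subunit of the replicative helicase with means of 47.3 in *rx3 weak* and 106 in wild type (adjusted p = 0.00061, but 0.12 without the time term), and of 15 neuronal activity genes none did. *ins*, the insulin gene, had means of 231 ± 21.7 in *rx3 weak* and 150 ± 25.4 in wild type (log2 0.61 ± 0.14, adjusted p = 0.0038). The other called gene of the endocrine pancreas list, *pcsk1*, was lower, with means of 516 ± 46.3 in *rx3 weak* and 686 ± 40.6 in wild type (log2 -0.41 ± 0.08, adjusted p = 0.0020). Of 8 blood markers, 2 were higher and 1 was lower, where 6.32% of all genes were higher and 8.18% lower. *hbae5*, an embryonic globin gene, averaged 70.9 ± 10.0 in *rx3 weak*, 23.2 in *rx3 strong* and 20.5 ± 12.1 in wild type (log2 1.81 ± 0.31 over wild type, adjusted p = 0.00030). The more abundant *hbae3* was the lower gene, with means of 1765 ± 206.3 in *rx3 weak* and 2422 ± 401.5 in wild type (log2 -0.45 ± 0.10, adjusted p = 0.0029).

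Metabolic pathway lists, taken from the gene table of the study, mixed rises and falls. Of 75 glycolysis and gluconeogenesis genes, 9 were higher and 10 were lower, where 6.32% of all genes were higher and 8.18% lower, and the median log2 fold change was -0.01. Without the time term 5 were lower. The rises were led by *gck*, described above. The falls included *pdha1b*, of the pyruvate dehydrogenase complex, with means of 10.7 in *rx3 weak*, 3.76 in *rx3 strong* and 102 in wild type (log2 -3.23), and *eno1b*, an enolase, with means of 404 in *rx3 weak* and 1051 in wild type (log2 -1.38). Of 106 purine genes, 12 were higher and 13 were lower, beside the same 6.32% and 8.18% of all genes. The deepest fall was that of *guk1b*, a guanylate kinase, with means of 59.4 in *rx3 weak*, 14.6 in *rx3 strong* and 878 in wild type (log2 -3.86). The number of higher purine genes was 5 without the wild-type library of ZT3, 6 without that of ZT15 or ZT21, 7 without the *rx3 weak* library of ZT3 or all libraries of ZT9 or ZT15, and 4 without all of ZT3 or the time term, and 7 were lower without the time term. Of 33 genes of the TCA cycle, none was higher and 3 were lower, a share near that over all genes. The number of lower genes was 1 without any one of the wild-type libraries, the *rx3 weak* library of ZT9 or ZT15, all libraries of ZT9 or ZT15, or the time term, and 1 gene was higher with DESeq2, limma, the stricter filter on low counts or the 8 libraries alone. In steroid biosynthesis 3 of 20 genes were higher, *cel.1*, *cel.2* and *soat1*, a sterol acyltransferase gene, of which *cel.1* and *cel.2* are also counted among the pancreatic enzymes. Without the time term neither *cel.1* (adjusted p = 0.060) nor *soat1* (0.062) passed.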

How the data were processed

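RNA of pooled zebrafish larvae was sequenced with a directional mRNA kit. The authors mapped reads to Zv9 with STAR, counted those that mapped uniquely on Ensembl genes with HTSeq, and deposited raw counts per gene. The log2 table that the authors also deposited was not used here. Of 32512 genes, 22156 (68.1%) were given a name from the gene name table or the study's tables.

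Counts were tested with edgeR 4.0.16 (R 4.3.3): TMM scaling, filterByExpr by genotype, and the quasi-likelihood test on genotype and time point in the 12 untreated libraries (6 coefficients, 6 residual degrees of freedom). Benjamini-Hochberg adjustment ran over all 22078 genes and the threshold was 0.05. Rhythms were compared on a cosine and a sine term per genotype (period 24 h). The tests were checked on simulated data. There the level test of *rx3 weak* over wild type recovered 54% of changes of log2 0.5 and 92% of those of log2 1, and called 6 unchanged genes. The rhythm test recovered 0% of peak-to-trough differences of log2 0.5, 6% of those of log2 1 and 78% of those of log2 2. It called 18 unchanged genes. Alternatives were DESeq2 1.42.0, limma 3.58.1 (voom), other scalings, filters and models, and fits without each library or time point. Counts of list members under these alternatives were chosen after seeing the data.

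Members and lists were chosen with earlier results of these data known. Named genes were *rx3*, the 12 largest rises and falls, up to 4 called and 2 other abundant members per list, and the 5 smallest p-values for rhythm. The rises and falls were drawn from genes with a symbol, a mean of at least 50 counts and the same direction at all times. Genes outside this rule (*opn1mw1*, *opn1lw1*, *GNAT1*, *GNAT2*, *ARR3*, *slc24a2*, *NEUROD1*, *PROM1* ENSDARG00000039966, *atoh7*, *POU4F2*, *SNCG*, *RGR*, *RPE65* ENSDARG00000054420, *cryba1b*, *BFSP1*, *crygm2d3*, *pmela*, *FKBP5*, *KLF9*, *tsc22d3*, *NR3C1*, *star*, *cyp17a2*, *CRH*, *oxt*, *PER1*, *PER2*, *npas2*, *cry3a*, *cry3b*, *bhlhe40*, *NR1D1*, *CLOCK*, *RGS9* ENSDARG00000045156 and *GRK7* ENSDARG00000055534) were chosen after their values were seen. A gene counted in its list is not reported by name here.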

Additional observations from a re-analysis of the deposited data

Results flagged for a closer look

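In groups of 4 libraries, single libraries stood far from the other 3 in 10 of 162 groups checked (6.17%). The cutoff is meant to flag about 1 in 20 groups of replicates. These groups hold 4 different times, and some list sums share genes with single entries, so the shares cannot be compared. In *rx3 weak*, *ARR3* was 1290 normalized counts at ZT3 and 130.9 to 172.6 at the other times, and the summed endocrine pancreas markers were 1397 at ZT21 and 1224 to 1245 otherwise. Also in *rx3 weak*, *tspan5b* was 0.8945 at ZT15, which is 1 read, and 0 otherwise. In wild type, ZT21 stood apart for *FKBP5* (3935, others 1486 to 1679), *KLF9* (867.5, others 323.2 to 411.9), *rx1* (235.9, others 657.8 to 719.9) and *GRK4* (108.3, others 70.07 to 74.23). The remaining wild-type values were *opn1sw2* at ZT9 (5616, others 3997 to 4156), *cd74a* at ZT3 (36.04, others 24.29 to 26.27) and the summed photoreceptor structure and fate genes at ZT15 (20200, others 23980 to 24410). With 1 library per time, a daily course and a deviating library cannot be told apart.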

How the results depend on the processing

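Each time has 1 library per genotype, so library error at a time could not be estimated. Without the time term, 532 genes were higher and 1169 lower in *rx3 weak*, and 31.3% of calls were rises, against 43.6% with it. Without 1 library or time point, 818 to 1156 genes were higher and 1337 to 1606 lower, and rises made up 37.6% of calls without the wild-type library of ZT3. The 8 libraries alone gave 1974 higher and 2189 lower genes. For the rhythm, 0 to 5 genes passed without 1 library and 1 by DESeq2. No call changed sign under any alternative run. Of 10296 values of named genes and members of the lists other than pathways, 368 lost their call and 77 gained one. The 10296 include genes without a call in the main fit, so 368 is not set against calls alone. The genotypes were matched by time point, which the model holds as a factor. Replicate numbers stand for these time points, so no further pairing was possible.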

Other observations

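Enzymes outside the lists led by the eye also changed in *rx3 weak*. *cps1*, which makes the carbamoyl phosphate of the urea cycle, had 39.3, 34.4, 34.0 and 19.6 normalized counts in *rx3 weak* at ZT3, ZT9, ZT15 and ZT21 and 146, 93.6, 126 and 88.1 in wild type (log2 -1.82 ± 0.19, adjusted p = 1.1e-06). *otc*, the next enzyme of that cycle, had 16.6, 15.3, 10.7 and 10.9 in *rx3 weak* and 63.9, 65.1, 56.9 and 80.0 in wild type (log2 -2.28 ± 0.25, adjusted p = 9.4e-07). *otc* was lower still in *rx3 strong*, with a mean of 3.36 against 13.4 in *rx3 weak* (adjusted p = 0.0087 for weak over strong). In the opposite direction, *cyp19a1b*, the brain aromatase that makes oestrogen in radial glia of fish, had 68.2, 58.3, 46.5 and 46.9 in *rx3 weak* and 16.5, 19.4, 26.4 and 24.3 in wild type (log2 1.33 ± 0.24, adjusted p = 0.00048). Its mean was 55.0 in *rx3 weak* and 57.4 in *rx3 strong*, and none of these genes had overlapping groups of *rx3 weak* and wild type.

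*lrmp* had 140, 134, 143 and 138 normalized counts in *rx3 weak*, nearly the same at each time, and 764, 413, 398 and 1528 in wild type (log2 -2.33 ± 0.25, adjusted p = 9.0e-07). It was among the 5 genes with the smallest p of the rhythm test, none of which passed after adjustment.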
